A study of Mus musculus with 30 samples.

Results

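The comparison described here asked what an anti-PD1 antibody added to a CD40 agonist in wild type mice, and it set 3 tumor libraries given both antibodies (the combination) against 3 given the agonist alone. These are 6 of the 30 RNA sequencing libraries of the series, chosen by their labels and not by any measured value. All 6 came from B16F10 tumors, a transplantable mouse melanoma line, grown under the skin of female C57BL/6 mice. The titles call these hosts WT and the genotype label reads ARE-del +/+, which is taken here as wild type. The other hosts of the series were ARE-del heterozygotes.

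The anti-CD40 group received 0.25 mg of the agonist, clone FGK115B3, as ascites. The combination group received 0.25 mg of the same agonist and 0.25 mg of purified anti-PD1, clone RPMI-14. Dosing began after 7 days of growth and was repeated 2 times a week. Control mice received rat IgG2A, and the sources used here do not say whether the anti-CD40 group also received a control antibody. Nothing in the labels states that libraries of a group came from separate mice, so the p-values reflect only how these samples varied, which may be technical. The 6 libraries held from 21.1 M to 27.6 M reads and all carry the number L6 in their names.

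PD-1 is a receptor of activated T cells that dampens their signaling when it meets its ligands PD-L1 (Cd274) and PD-L2 (Pdcd1lg2), and blocking antibodies lift that brake. CD40 sits on dendritic cells, macrophages and B cells, signals through TRAF proteins to NF-kB, and drives maturation of those cells and their cytokines. T cells reactivated by either route release interferon-gamma, which induces Cxcl9, Cxcl10, guanylate-binding proteins and PD-L1 in neighbouring cells.

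No gene passed the test. Of 15002 genes tested with limma over all 30 libraries, 0 (0.0%) had an adjusted p under 0.05, and the lowest adjusted p was 0.61. At an unadjusted p under 0.05, 326 genes (2.17%) were higher and 473 (3.15%) lower in the combination. The voom method of limma, run on reads recovered from the deposited values, also called 0 genes and gave 275 higher and 295 lower at that level. The 3 combination libraries all lay above the 3 anti-CD40 libraries for 856 genes (5.71%) and all below for 1109 (7.39%), and against anti-CD40 replicates 1 and 3 alone these counts were 1127 (7.51%) and 1444 (9.63%). The log2 difference was above 0 for 51.2% of genes. Every value given below therefore describes these 6 libraries and did not pass the test, and each adjusted p of this comparison is 0.61 or more.

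Anti-CD40 replicate 2 stood apart from the other 5 libraries. Its correlation with them over all genes ran from 0.875 to 0.934, against at least 0.965 among the others. The first principal component of the 6 libraries held 71.5% of the variance and placed this library at 123.3, with the others between -45.7 and 21.2. The combination group was the tightest of the 8 groups of the series, with a median standard deviation per gene of 0.158 on the log2 scale against 0.409 for anti-CD40, and its standard deviation was the smaller for 80.2% of genes. The value without anti-CD40 replicate 2 is therefore given beside the main lists and for many of the named genes. Of 100 genes chosen by rule and tested, 86 had a difference nearer 0 without it and 62 moved by over 1.5 times or changed sign. Over all genes, 47 were then higher and 27 lower at an unadjusted p under 0.05.

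The defining genes of melanocytes were abundant in both groups. Dct, an enzyme of melanin synthesis on chromosome 14, stood at 12.94, 12.86 and 13.19 log2 CPM (counts scaled to library size) in anti-CD40 replicates 1 to 3 and at 13.36, 13.21 and 13.12 in combination replicates 1 to 3. The ranges overlapped, and the log2 difference, combination minus anti-CD40, was 0.23 ± 0.21 (SE). Pmel, a melanosome matrix protein, differed by -0.01 ± 0.31 and Gpnmb, a glycoprotein of melanosomes and macrophages, by 0.39 ± 0.35. Of 21 melanocyte genes 14 were higher and 7 lower, with a median of 0.12 against 0.01 over all genes, and the median was -0.02 without anti-CD40 replicate 2. Ednrb, the endothelin receptor of the melanocyte lineage, had the lowest unadjusted p of the list (0.85 ± 0.40), and Pax3, a transcription factor of that lineage, differed by 0.42 ± 0.22, values that were 0.49 and 0.14 without that library.

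The tumors held few reads of T cell genes. The T cell receptor subunit gene Cd3e held 3, 5 and 1 reads in the anti-CD40 libraries and 1, 3 and 5 in the combination. Cd8a, a marker of cytotoxic T cells, held 1, 18 and 8 reads against 5, 7 and 13. The groups overlapped for both genes, and the exact permutation p was 0.9 for Cd3e and 1.0 for Cd8a, where 3 against 3 libraries cannot give less than 0.1. Of 36 T cell genes only 13 passed the filter on low values, and 10 of these were lower with a median of -0.55. That median was -0.08 without anti-CD40 replicate 2, the library with the highest T cell score. Bcl11b, a T lineage transcription factor that skin cells also use, had the lowest p of the list (-2.25 ± 0.97, or -1.23 without that library). Among the members with the highest mean, Thy1 differed by -0.63 ± 0.63 (-0.08 without it), Cxcr3, the receptor for Cxcl9 and Cxcl10, by -0.55 ± 0.31, and Tcf7, a factor of naive and memory T cells, by -0.33 ± 0.33.

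The target receptors showed no separation between the groups. Pdcd1, which encodes PD-1, held 2, 22 and 3 reads after anti-CD40 and 3, 2 and 5 after the combination, so that 1 library carried most of the anti-CD40 reads. Its log2 difference was -0.67 (exact permutation p = 0.8) and 0.22 without anti-CD40 replicate 2. Cd40 held 6, 24 and 18 reads against 7, 13 and 15, with a log2 difference of -0.36 (exact permutation p = 0.5) and 0.06 without that library. Pdcd1lg2 held 2, 3 and 2 reads against 2, 0 and 6. Cd274 on chromosome 19 was at 4.51, 3.48 and 4.89 log2 CPM against 4.77, 5.01 and 4.84. Its lowest value was in anti-CD40 replicate 2, the library with the most Pdcd1 and Cd40 reads. The groups overlapped, and the difference was 0.58 ± 0.41 (exact permutation p = 0.3), or 0.17 without anti-CD40 replicate 2. Cd40lg, the ligand of CD40, was not analysed here.

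Other genes of these 2 pathways differed little. Of 18 checkpoint genes that passed the filter, 13 were higher and 5 lower with a median of 0.15, or 0.20 without anti-CD40 replicate 2, and 0 of 18 had groups that did not overlap. Sirpa, the myeloid receptor for CD47, differed by 0.14 ± 0.21, Lgals9, which encodes galectin-9, by 0.01 ± 0.26, and Ptpn11, the phosphatase that PD-1 recruits, by 0.25 ± 0.19. Of 33 genes of CD40 signaling and NF-kB, 19 were higher and 14 lower with a median of 0.08, or 0.02 without that library. Ikbkb, the kinase that phosphorylates the NF-kB inhibitors, was at 6.48, 5.92 and 6.40 log2 CPM after anti-CD40 and 6.71, 6.67 and 6.57 after the combination. The groups did not overlap, and the difference was 0.38 ± 0.14, but it was 0.21 without anti-CD40 replicate 2 and -0.09 once a trend with exon length was removed. Nfkbia, an inhibitor of NF-kB and one of its targets, was at -0.60 ± 0.33 (-0.24 without that library), Chuk, the partner kinase of Ikbkb, at 0.32 ± 0.24 (0.03 without it), and Tnip1, a feedback inhibitor, at 0.16 ± 0.23.

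Neutrophil genes were lower in the combination. All 15 neutrophil genes that passed the filter were lower, with a median log2 difference of -2.03 against 0.01 over all genes. The unadjusted p was under 0.05 for 9 of the 15, beside 3.15% of all genes, and for 9 the 3 combination libraries all lay below the 3 anti-CD40 libraries, beside 7.39% of all genes. Leaving out anti-CD40 replicate 2 left 1 gene of the 15 at an unadjusted p under 0.05. Neutrophils are short-lived phagocytes that are drawn into tissue by CXCR2 ligands such as Cxcl2 and Cxcl3 and carry large amounts of the calprotectin subunits S100a8 and S100a9. In whole tumors fewer cells of a type, less RNA per cell and RNA of these genes from other cell types cannot be told apart. The chemokine promoters are shown because Cxcl2 and Cxcl3 had the largest differences among the chemokines, and both hold the letters GGAATTTCC of an NF-kB binding motif, marked by capitals, in the RefSeq window from 250 bases before to 50 bases after the start:
Cxcl2: ctgagctcagGGAATTTCCctggtccccg
Cxcl3: agctgcggggGGAATTTCCccagcccggg
The Cxcl2 stretch lies at chr5:90903793-90903821 and the Cxcl3 stretch at chr5:90786019-90786047 of GRCm38.p6, both on the plus strand, with the capitals starting 96 and 72 bases before the start of transcription. Of 12 neutrophil, chemokine and cytokine genes that were lower at an unadjusted p under 0.05, 11 had a window, and these 2 held the letters on either strand, as did 0.317% of all 32851 windows. The 12 genes and the letters were picked with the values and windows in view, and a match describes the sequence only.

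Cxcl3 (chromosome 5, 90786103 to 90789600) was at 1.14, 3.83 and 1.05 log2 CPM after anti-CD40 and at -2.98, -3.05 and -0.81 after the combination, where -3.64 is the value of a gene without a read. All 3 combination libraries lay below all 3 anti-CD40 libraries, and the difference was -4.29 ± 1.21 (limma adjusted p = 0.61). Cxcl2, named after its values were seen, was at 2.06, 5.44 and 2.53 against -0.45, -1.82 and 0.35, a difference of -3.98 ± 1.41, or -2.94 without anti-CD40 replicate 2. S100a8 (chromosome 3, 90668978 to 90670035) stood at 1.73, 6.54 and 3.43 against -0.45, -0.63 and 0.23, a difference of -4.18 ± 1.39 (limma adjusted p = 0.61). The partner subunit S100a9 (chromosome 3, 90692632 to 90695721) stood at 1.98, 6.94 and 3.61 against 0.08, -1.04 and 0.60, a difference of -4.30 ± 1.49 (limma adjusted p = 0.61). In all 4 genes anti-CD40 replicate 2 was the highest library, and the other 2 anti-CD40 libraries also lay above every combination library. Mmp9, a gelatinase stored in neutrophil granules and made by other cells too, overlapped between the groups and differed by -2.02 ± 1.26.

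The differences were smaller without anti-CD40 replicate 2. The neutrophil median was then -1.46, with all 15 genes lower. Cxcl3 was then at -3.38, S100a8 at -2.86 and S100a9 at -2.91. With list scores for skin and muscle as covariates the median was -1.39 and with the length trend removed -1.98. The list's summed level ran from 27.8 to 344 CPM over the anti-CD40 libraries and from 6.43 to 20.7 CPM over the combination, with 6.34 to 129 CPM over the 5 IgG libraries and 10.3 to 63.2 CPM over the 4 given anti-PD1 alone. The combination libraries and anti-CD40 replicates 1 and 3 (27.8 and 55.9 CPM) lay inside the range of IgG tumors, and anti-CD40 replicate 2 lay above it. The plot of neutrophil and cytokine genes by library shows both groups beside the IgG mean.

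**Figure D1:**
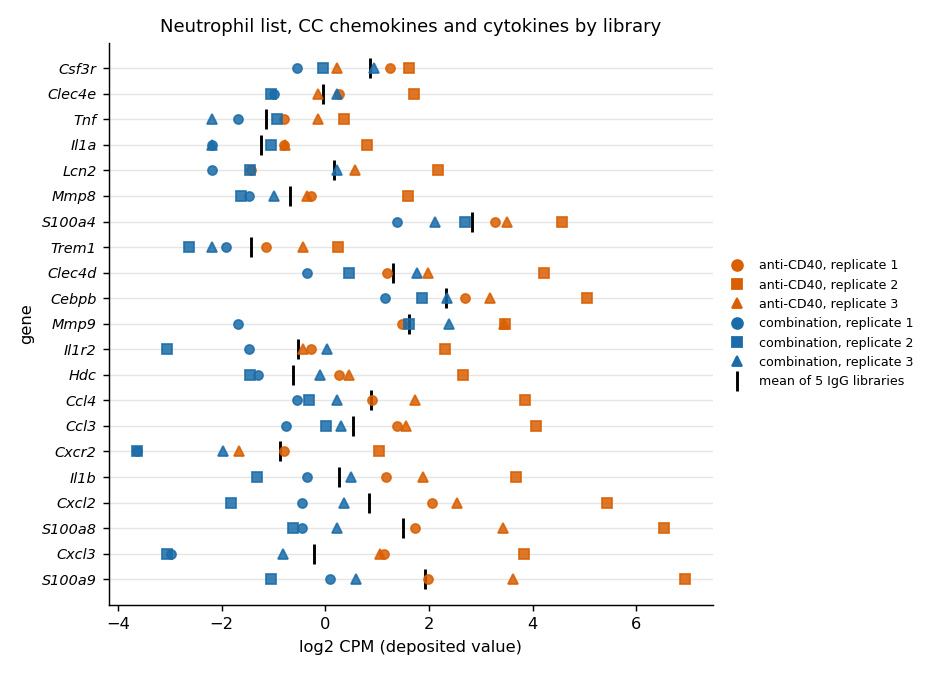
Log2 CPM (horizontal axis) of the neutrophil list with Ccl3, Ccl4, Tnf, Il1a, Cebpb and S100a4 (vertical axis), 1 symbol for each of the 3 anti-CD40 (orange) and 3 combination (blue) libraries, with a black tick at the mean of 5 IgG libraries. For Cxcl3, Cxcl2, S100a8 and S100a9 every blue symbol lies left of every orange one, and anti-CD40 replicate 2 (orange square) is the rightmost for every gene plotted.

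The chemokine and cytokine lists followed in part. The lists share genes, such as Cxcl2 and Cxcl3 of the neutrophil and chemokine lists, so their counts overlap. Of 27 chemokine genes 24 were lower, with a median of -0.51 that was -0.04 without anti-CD40 replicate 2. At an unadjusted p under 0.05, 4 were lower, beside 3.15% of all genes. Without that library 1 was, beside 27 of all 15002 genes. Ccl4, a chemokine made by activated macrophages and lymphocytes (chromosome 11, 83662584 to 83664683), was at 0.90, 3.85 and 1.73 log2 CPM after anti-CD40 and -0.54, -0.31 and 0.23 after the combination. The groups did not overlap, and the difference was -2.37 ± 0.80, or -1.53 without anti-CD40 replicate 2. The T cell attractants did not share this pattern. Cxcl9 was at 0.36, 2.0 and 0.37 against 1.89, 2.05 and 1.77, with overlapping groups and a difference of 0.99 ± 1.25 (exact permutation p = 0.3), or 1.54 without anti-CD40 replicate 2. Cxcl10 was at 3.85, 5.21 and 4.53 against 4.05, 3.62 and 4.78, a difference of -0.38 ± 0.72 (exact permutation p = 0.6), or -0.04 without it. Ccl6 and Ccl25, the other members of highest mean, differed by -0.69 ± 0.87 and -0.09 ± 0.16, or by -0.15 and 0.01 without it.

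Among 17 cytokine genes 13 were lower, with a median of -0.34, or -0.07 without anti-CD40 replicate 2. Il1b, the fever cytokine of activated myeloid cells (chromosome 2, 129364570 to 129371139), stood at 1.17, 3.68 and 1.88 log2 CPM against -0.36, -1.31 and 0.50. Its groups did not overlap, and the difference was -2.63 ± 0.96. Il1a stood at -0.79, 0.81 and -0.77 against -2.19, -1.04 and -2.18, also without overlap, a difference of -1.56 ± 0.69. Without anti-CD40 replicate 2 these differences were -1.91 and -1.03. The cytokines with the highest means, Csf1, Tgfb1 and Tgfb3, differed by -0.10 ± 0.33, -0.05 ± 0.33 and 0.20 ± 0.36. Ifng held 0, 1 and 0 reads after anti-CD40 and 0, 0 and 2 after the combination, a pooled anti-CD40 to combination ratio of 0.529 with an exact 95% interval from 0.00897 to 10.2, so no difference was detectable at this depth.

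Macrophage genes did not hold a direction. Of 36 genes 28 were lower with a median of -0.24, and without anti-CD40 replicate 2 only 6 were lower and the median was 0.35. Arg1, the arginase of suppressive myeloid cells, was at 3.68, 5.76 and 3.50 log2 CPM against 0.96, 3.04 and 3.34, groups that did not overlap, with a difference of -1.87 ± 1.04, or -1.14 without anti-CD40 replicate 2. Cd14, the co-receptor for lipopolysaccharide, was at 1.77, 4.36 and 2.29 against 0.42, 1.23 and 1.70, with a difference of -1.69 ± 0.78, or -0.91 without that library. Apoe and Spp1, both also made outside macrophages, differed by -0.01 ± 0.30 and -0.53 ± 0.72. The 11 genes of antigen presentation by MHC class II behaved alike, with 9 lower and a median of -0.26 that was 0.49 without anti-CD40 replicate 2.

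Genes of skin showed the largest differences. All 33 keratinocyte genes that passed the filter were lower in the combination, 25 at an unadjusted p under 0.05 beside 3.15% of all genes, with a median of -4.12. Leaving out anti-CD40 replicate 2 left 0 of the 33 at that level by limma. The summed level of the list was 21.6 to 5260 CPM over the anti-CD40 libraries and 16.5 to 22.4 CPM over the combination. It also varied widely within other groups, from 15.4 to 820 CPM over the 5 IgG libraries and from 17.1 to 226 CPM over the 4 given anti-PD1 alone. In heterozygous hosts it ran from 16.4 to 2370 CPM after anti-CD40 and from 25.2 to 900 CPM after the combination. The wild type combination libraries thus lay inside the range of IgG tumors. Krt14, a keratin of the basal epidermis (chromosome 11, 100203162 to 100207548), held 28, 23069 and 2263 reads in anti-CD40 replicates 1 to 3 and 1, 0 and 2 in the combination. Pooled over each group the anti-CD40 level was 8940 times the combination level, with an exact 95% interval for counting error from 3060 to 43400, and the fitted difference was -8.75 ± 3.15. Krt5, its partner in basal cells, held 26, 7497 and 1075 reads against 2, 0 and 0, and Krt17, a keratin of hair follicles and wounded skin, held 19, 7041 and 956 against 2, 0 and 0.

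The order of the 3 anti-CD40 libraries was the same for these genes, with replicate 2 far above replicate 3 and replicate 3 far above replicate 1. Krt6a and Krt6b, keratins of stressed epidermis, held 16 and 4 reads in anti-CD40 replicate 1, and 8502 and 9895 in replicate 2. Epcam, an adhesion molecule of epithelia, was at -0.89, 3.18 and 1.39 log2 CPM against -1.91, -2.05 and -1.78 and had the lowest p of the list (-3.14 ± 1.01, or -2.16 without anti-CD40 replicate 2). Of the 33 genes 15 had no read in any combination library, and with each of these set to the bound that 3 reads over the group allow the median was -6.88, with anti-CD40 levels at least 18.0-fold to 1880-fold higher. The members with the highest means also occur outside skin: Sbsn differed by -1.31 ± 0.70, Dsp, a plaque protein of cell junctions, by -2.41 ± 1.27, and Sfn, a 14-3-3 protein of epithelia, by -3.48 ± 1.43. These differences were -0.26, -1.35 and -2.04 without that library. Without anti-CD40 replicate 2 the median was -2.16 and 33 of 33 were lower. With skin and muscle scores as covariates it was 0.00, a value the fit sets because the skin score is the mean of these same genes.

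**Figure D2:**
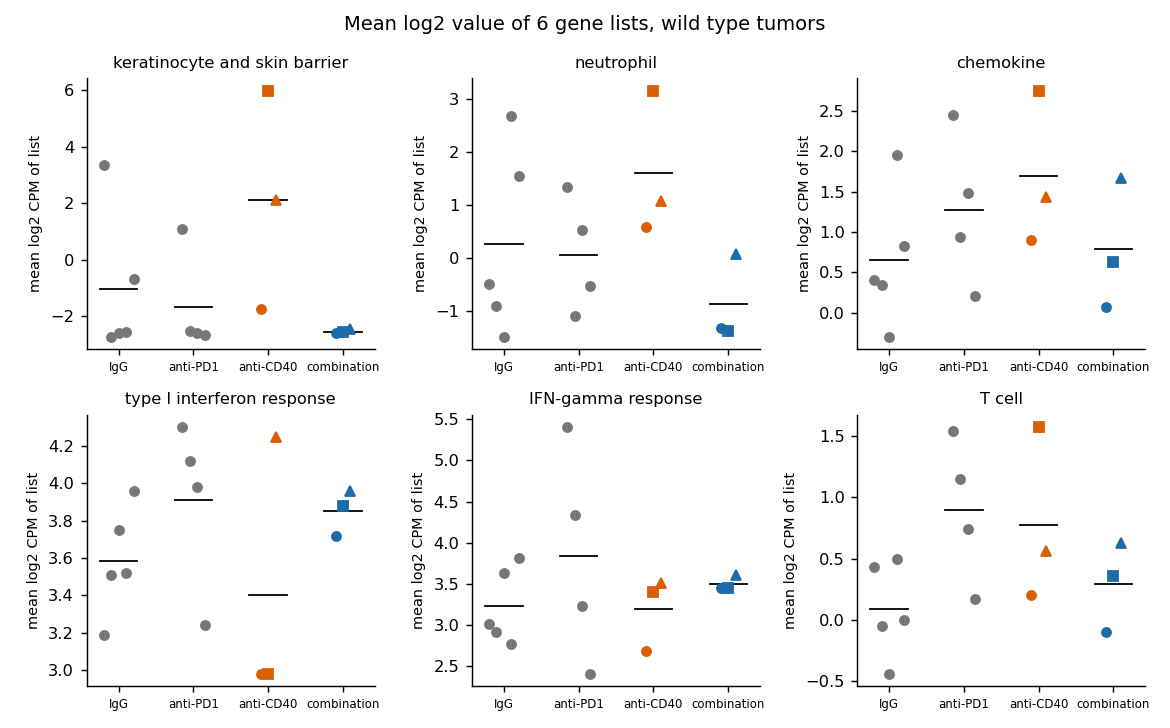
Mean log2 CPM of 6 gene lists (vertical axes) in each wild type library, by treatment (horizontal axes), with a black line at the mean of each group, anti-CD40 in orange and the combination in blue (circle, square and triangle for replicates 1 to 3) and IgG and anti-PD1 in grey. The combination libraries lie between -2.60 and -2.48 for the keratinocyte list while the anti-CD40 libraries run from -1.76 to 5.99, and anti-CD40 replicate 2 is the highest of the 6 libraries for the keratinocyte, neutrophil, chemokine and T cell lists.

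The neutrophil and keratinocyte scores both put anti-CD40 replicate 2 first, at 3.16 and 5.99. Anti-CD40 replicate 1 held few keratinocyte reads, and its score of -1.76 still lay above the combination libraries at -2.60 to -2.48. Its neutrophil score of 0.58 likewise lay above the combination libraries at -1.32, -1.38 and 0.08. The neutrophil median was -1.39 with the skin and muscle scores as covariates, beside -2.03 without them. Whether skin content accounts for the neutrophil difference was not tested. Blood genes were lower as well. Of 13 red blood cell and platelet genes 12 were lower with a median of -1.61, or -0.78 without anti-CD40 replicate 2, and their scores were 3.64, 5.05 and 2.93 against 3.14, 2.06 and 2.49. The 14 hair follicle and sebaceous gland genes had a median of -1.59, or -0.59 without anti-CD40 replicate 3. Of these 6 had no read in the combination, and with each set to the bound of 3 reads over the group the median was -3.13. Adipocyte genes had a median of -0.59 (-0.00 without anti-CD40 replicate 2) and skeletal muscle genes of 0.01 (-0.35 without anti-CD40 replicate 2 and 0.61 without replicate 3).

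Type I interferon response genes were mostly higher in the combination. Of 44 genes 38 were higher and 6 lower, with a median of 0.59. At an unadjusted p under 0.05, 5 were higher and 1 lower, beside 2.17% and 3.15% of all genes. For 4 all combination libraries lay above all anti-CD40 libraries, beside 5.71% of all genes. Leaving out anti-CD40 replicate 2 left 0 higher and 0 lower at that level by limma. Dhx58, which encodes the RNA sensor LGP2 (chromosome 11, 100694884 to 100704271), was at 3.91, 3.60 and 5.39 log2 CPM after anti-CD40 and 5.10, 5.72 and 5.36 after the combination. The groups overlapped because anti-CD40 replicate 3 was as high as the combination, and the difference was 1.09 ± 0.42, or 0.74 without anti-CD40 replicate 2. Ddx58, which encodes the RNA sensor RIG-I, was at 4.90, 3.10 and 5.70 against 5.64, 5.77 and 5.63, a difference of 1.12 ± 0.43, or 0.38 without that library. Ifi27, Irf9, the DNA-binding subunit of the interferon-activated complex ISGF3, and Bst2, which tethers budding virus, were the members of highest mean and differed by 0.41 ± 0.32, 0.49 ± 0.27 and 0.00 ± 0.39, or by 0.27, 0.16 and 0.11 without it.

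**Figure D3:**
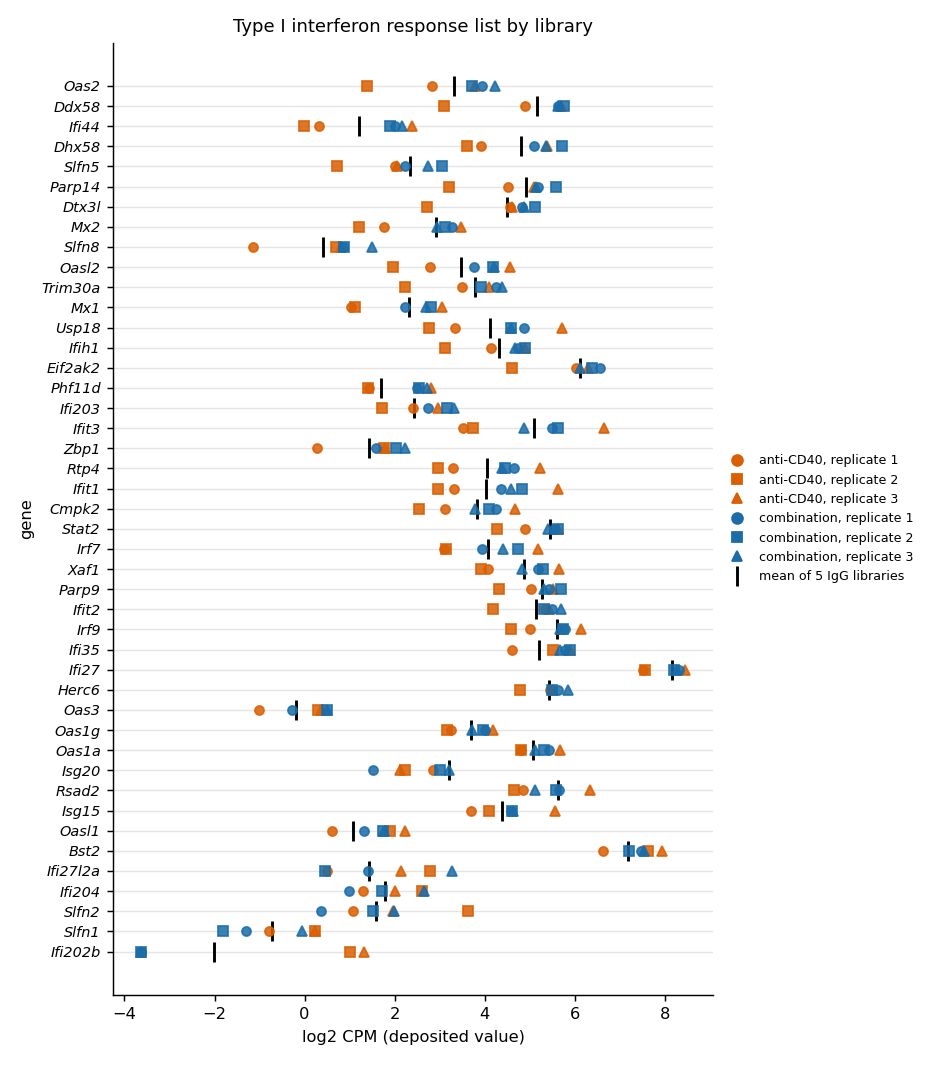
Log2 CPM (horizontal axis) of the 44 type I interferon response genes tested (vertical axis), with 1 symbol for each of the 3 anti-CD40 (orange) and 3 combination (blue) libraries and a black tick at the mean of 5 IgG libraries. The blue symbols of most genes lie close together and near the IgG mean, between anti-CD40 replicates 1 and 2 on the left and replicate 3 on the right.

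The anti-CD40 libraries spread widely for these genes. The type I interferon score was 2.98, 2.98 and 4.25 in anti-CD40 replicates 1 to 3 and 3.72, 3.88 and 3.96 in the combination, so 1 anti-CD40 library lay above every combination library. IgG tumors ran from 3.19 to 3.96 and tumors given anti-PD1 alone from 3.24 to 4.30. The median difference was 0.24 without anti-CD40 replicate 2 and 1.02 without replicate 3. Eif2ak2, the kinase PKR that halts translation on double-stranded RNA, was at 6.02, 4.62 and 6.30 log2 CPM against 6.57, 6.39 and 6.13 and differed by 0.71 ± 0.33 overall and 0.20 without anti-CD40 replicate 2. Ifi202b stood against the list, with no read in anti-CD40 replicate 1 or any combination library, and its pooled level was at least 36.0-fold higher in the anti-CD40 group than 3 reads over the combination group allow. It was named after its values were seen.

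Interferon-gamma response genes were split in direction with anti-CD40 replicate 2 included. Of 36 genes 23 were higher, with a median of 0.37, 0 had an unadjusted p under 0.05, and for 3 all combination libraries lay above all anti-CD40 libraries, a share near the 5.71% of all genes. Gbp7, a guanylate-binding protein, was at 3.52, 1.84 and 3.86 log2 CPM against 4.33, 4.25 and 4.10, without overlap, and had the lowest p of the list (1.16 ± 0.66). It was at 0.54 without anti-CD40 replicate 2. Jak1, the kinase that interferon receptors use, differed by 0.35 ± 0.21 (0.08 without that library), Psme1, a subunit of the proteasome activator PA28, by -0.22 ± 0.31, and Wars, a tRNA synthetase induced by interferon-gamma, by -0.28 ± 0.18. Leaving out 1 library at a time gave medians from 0.07 to 0.47. Without anti-CD40 replicate 2, 32 of the 36 genes were higher and 4 lower, with a median of 0.26. At an unadjusted p under 0.05 by limma, 0 were then higher and 0 lower.

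Of the genes whose groups did not overlap and whose mean over the 6 libraries was above 2 on the log2 scale, the 15 with the lowest p in each direction are described next. Gpr124, an adhesion receptor of vessel cells (chromosome 8, 27085583 to 27123436), had the lowest p among those higher in the combination. It was at 5.95, 4.98 and 5.52 log2 CPM after anti-CD40 and 6.70, 6.67 and 6.45 after the combination, a difference of 1.12 ± 0.28 (limma adjusted p = 0.61) and 0.87 without anti-CD40 replicate 2. Enpp2, which encodes autotaxin, the enzyme that makes lysophosphatidic acid (chromosome 15, 54838901 to 54952892), was at 6.77, 6.47 and 6.58 against 8.16, 8.49 and 8.0. The groups did not overlap, and the difference of 1.61 ± 0.47 (limma adjusted p = 0.61) was 1.54 without anti-CD40 replicate 2. Prkcz, an atypical protein kinase C, was at 2.27, 2.54 and 1.88 against 2.90, 3.76 and 3.50 (1.16 ± 0.34) and was at 1.31 without that library.

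For Enpp2 the IgG tumors stood at 7.68 ± 0.45 (SD, n = 5), so the mean of IgG lay between those of anti-CD40 and the combination. The means stood in the same order for Gpr124, with IgG at 6.10 ± 0.41, and for Prkcz, with IgG at 3.06 ± 0.53. Mylk, the kinase of myosin light chain (1.28 ± 0.38), Papln, the matrix protein papilin (1.68 ± 0.51), and Epha3, an ephrin receptor (1.32 ± 0.49), were also higher in all 3 combination libraries. The 15 genes also included Cers1, B4galt6, Fads6, Map2, Ikbkb, Zfp868 and Brox. Anti-CD40 replicate 2 was the lowest of the 6 libraries for 13 of the 15.

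Among genes that were lower in all 3 combination libraries, H2afx, the histone variant that marks DNA breaks (chromosome 9, 44334694 to 44336077), was at 5.68, 7.01 and 6.16 log2 CPM against 5.41, 5.26 and 5.40. Its difference was -0.93 ± 0.28 (limma adjusted p = 0.61), or -0.57 without anti-CD40 replicate 2, and the combination lay near IgG at 5.44 ± 0.33 (SD, n = 5). Cebpb, a transcription factor of myeloid and stress responses, was at 2.70, 5.05 and 3.17 against 1.15, 1.87 and 2.34 (-1.85 ± 0.68, or -1.15 without that library). S100a4, a calcium-binding protein of fibroblasts and leukocytes, was at 3.28, 4.56 and 3.50 against 1.38, 2.70 and 2.12 (-1.72 ± 0.63, or -1.33 without it). Shmt2, which makes glycine in mitochondria, differed by -0.68 ± 0.24 and Por, the reductase of cytochrome P450 enzymes, by -0.34 ± 0.12. The others were S100a9, Sesn2, Raly, Pithd1, Mtrf1, Hnrnpa0, Pgrmc2, Exosc9, L3hypdh and Mrpl9, and anti-CD40 replicate 2 was the highest library for 13 of the 15.

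Stress genes were mixed in direction. Sesn2, a sestrin induced by amino acid shortage (chromosome 4, 132492032 to 132510501), was at 4.69, 4.84 and 4.92 log2 CPM against 4.19, 4.05 and 4.50. The groups did not overlap, and the difference of -0.57 ± 0.19 was -0.56 without anti-CD40 replicate 2. Chac1, a glutathione-degrading enzyme of the same response, was at 4.19, 4.81 and 4.35 against 3.17, 3.31 and 4.04 (-0.95 ± 0.45). Hspa8, Hsp90ab1 and Hsp90aa1, abundant chaperones, differed by 0.29 ± 0.28, -0.14 ± 0.17 and 0.17 ± 0.27. Over the 20 genes of heat shock and endoplasmic reticulum stress 12 were higher and 8 lower with a median of 0.08. At an unadjusted p under 0.05, 3 were lower, beside 3.15% of all genes. Leaving out anti-CD40 replicate 2 gave a median of 0.16 and 1 such gene, and leaving out replicate 3 a median of -0.10. Of 37 cell cycle genes 24 were lower, 7 of them in all 3 combination libraries beside 7.39% of all genes, with a median of -0.11, or -0.07 without anti-CD40 replicate 2.

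Mitochondrially encoded transcripts were higher on average. Of 15 genes 12 were higher, with a median of 0.42, or 0.18 without anti-CD40 replicate 2. The oxidase subunit gene mt-Co1 was at 12.82, 10.98 and 12.36 log2 CPM against 13.10, 13.21 and 12.92, without overlap (1.02 ± 0.61, or 0.49 without that library). The complex I gene mt-Nd5 was at 10.52, 8.87 and 9.70 against 10.81, 10.82 and 10.51 (1.01 ± 0.59, or 0.60 without it), and mt-Nd4l, another complex I gene, differed by 1.70 ± 0.81 (0.73 without it). Anti-CD40 replicate 2 was the lowest library in each.

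**Figure D4:**
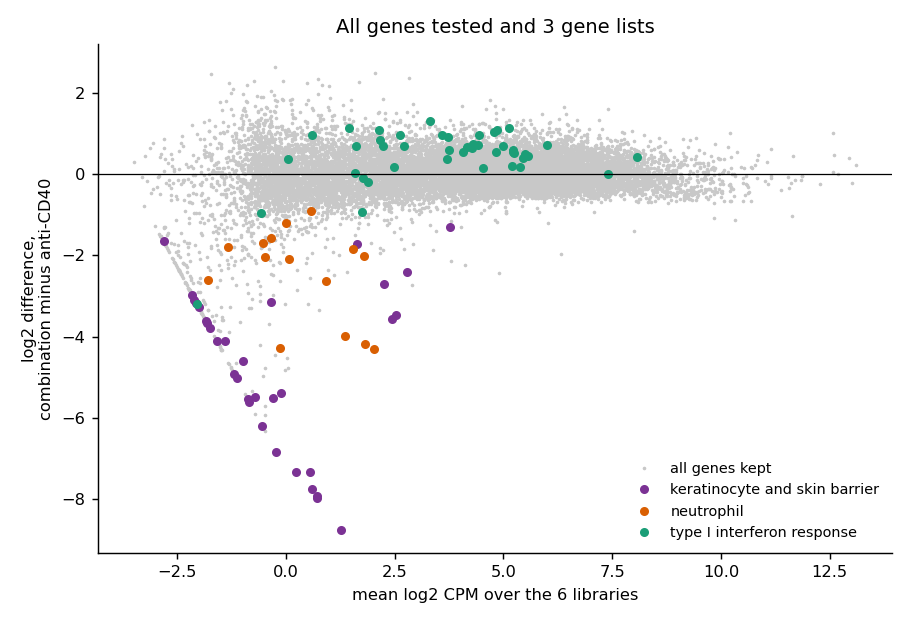
Log2 difference, combination minus anti-CD40 (vertical axis), against the mean log2 CPM over the 6 libraries (horizontal axis) for the 15002 genes tested, with 3 lists in color. The 33 keratinocyte and 15 neutrophil genes all lie below 0, 38 of 44 type I interferon genes lie above it, and the straight lower edge holds genes without reads in the combination.

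A trend with gene length ran through the comparison. Over 5 equal bins of genes by summed exon length, the median log2 difference went from -0.30 in the shortest (median 1128 bases) through 0.01 in the middle bin to 0.32 in the longest (median 9559 bases). In anti-CD40 replicate 2 the deviation from the mean of the other 5 libraries was 0.66 in the shortest bin and -0.75 in the longest. Without that library the medians ran from -0.10 to 0.08. The 15 higher genes listed above had a median exon length of 5808 bases and the 15 lower ones of 2679 bases, against 4073 bases over all genes. The 5 highest differences belonged to transcripts with few or no reads in that library: Gdap10 (2.35 ± 1.20) and 4 loci named only by clone, of which RP23-461P14.1 had the highest at 2.48 ± 1.30. Without that library the differences of Gdap10 and RP23-461P14.1 were 0.97 and 0.81. RP23-461P14.1 was at 3.36, -2.51 and 1.61 log2 CPM against 3.41, 3.26 and 3.21, so that anti-CD40 replicate 1 lay among the combination libraries.

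**Figure D5:**
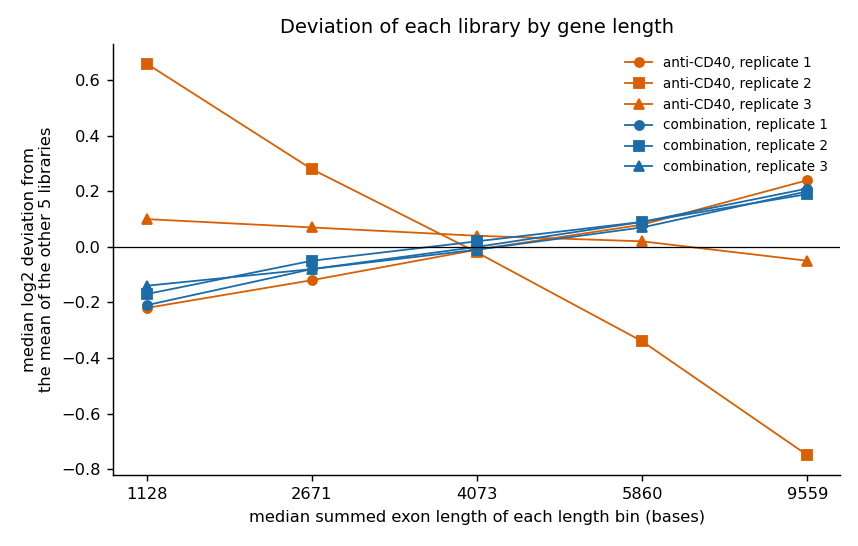
Median log2 deviation of each of the 6 libraries from the mean of the other 5 (vertical axis) in 5 bins of genes by summed exon length (horizontal axis, median length in bases, evenly spaced). Anti-CD40 replicate 2 goes from 0.66 in the shortest bin to -0.75 in the longest, while the other 5 libraries stay between -0.22 and 0.24.

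Whether anti-PD1 acted differently in the presence of the agonist was tested as an interaction with the anti-PD1 and IgG groups of wild type mice. No gene was called by limma (0.0%, lowest adjusted p 0.78), and 249 genes (1.66%) were higher and 211 (1.41%) lower at an unadjusted p under 0.05. Anti-PD1 against IgG, without the agonist, gave a neutrophil median of -0.27 with 7 of 15 genes higher, beside -2.03 with the agonist. The median interaction of the list was -2.17. It was below 0 in other lists too, at -3.61 for keratinocyte, -1.35 for chemokine, -1.13 for T cell and -0.98 for macrophage genes. Some lists lay above 0, such as type I interferon at 0.25 and melanocyte genes at 0.30. For Cxcl3 the difference was -0.45 ± 1.00 without the agonist and -4.29 ± 1.21 with it, an interaction of -3.84 ± 1.57 (limma adjusted p = 0.78). For Enpp2 it was -0.06 ± 0.39 without and 1.61 ± 0.47 with the agonist (interaction 1.67 ± 0.61, limma adjusted p = 0.78). For Cd8a it was 1.76 ± 0.68 without and 0.15 ± 0.82 with it. Both sides of this comparison come from different libraries, and those without the agonist mostly carry the number L5 where the other 6 carry L6.

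The same addition of anti-PD1 to the agonist in ARE-del heterozygous mice (4 libraries against 4) was compared by a second interaction. Limma called 0 genes (0.0%, lowest adjusted p 1), and 31 (0.207%) were higher and 75 (0.5%) lower in wild type relative to heterozygous hosts at an unadjusted p under 0.05. The neutrophil median was -0.12 in heterozygous hosts, the keratinocyte median 0.36 and the type I interferon median 0.15, with 37 of 44 interferon genes higher. S100a8 differed by -0.08 ± 1.20 there and Cxcl3 by -0.78 ± 1.05. Enpp2 differed by 0.13 ± 0.41 and Chac1 by -0.87 ± 0.39.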

How the data were processed

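The deposited table holds log2 values made by the authors, with STAR, edgeR and mm10 named in the submitters' processing notes and no version given. The values rebuild from whole reads as log2 CPM with a prior count of 2 (largest difference 2.4e-07), with 100% of values whole within 0.01 reads. Libraries held 17.6 M to 36.0 M reads. A gene was kept if 3 or more of the 30 libraries exceeded a log2 value of 0 (15002 of 18975), and limma 3.58.1 in R 4.3.3 was fitted over 8 groups of all 30 libraries without covariates, with Benjamini-Hochberg adjustment and a threshold of 0.05. The fit was tested on simulated reads with the same relative spread for all genes and no outlying library. That test does not show what size of change could be detected in these data. Exact permutation tests were two-sided. A list score is the mean log2 value of its members that passed the filter. Coordinates and exon lengths came from GENCODE vM21 on mm10, which held 18837 identifiers, and promoters from RefSeq (GRCm38.p6).

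Genes named were a fixed set of checkpoint and T cell genes in every library, the 15 genes each way with the lowest p among those whose groups did not overlap and whose mean was above 2, the 3 highest means and 2 lowest p of each of 13 lists, and the 5 highest and 5 lowest differences among genes with a mean above 0. Some genes under this rule are not reported here. The members and the 32 lists were chosen with earlier results of these data known. Alternatives were other fits, filters, prior counts and normalizations, covariates, and leaving out each of the 6 libraries of the comparison.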

Additional observations from a re-analysis of the deposited data

Results flagged for a closer look

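The scores of 13 lists were examined in the 4 groups of 4 or 5 libraries that the report sets beside the comparison (wild type IgG and anti-PD1, HET anti-CD40 and HET combination), and the HET IgG group was not examined. Of these 52 sets 3 held a library far from the others of its group by Dixon's ratio, and chance flags about 1 in 20 such groups. The groups of 3 compared in the report are too small for that test. The interferon-gamma score of HET anti-CD40 replicate 3 was 6.36, with the nearest library of that group at 4.77. Anti-PD1 replicate 1 of the wild type had a keratinocyte score of 1.10, with the nearest at -2.52, and a melanocyte score of 8.35, with the nearest at 8.76. This anti-PD1 library enters the wild type interaction given in the report and not the comparison of the combination with anti-CD40. With keratinocyte and muscle scores as covariates that interaction had 131 genes higher and 142 lower at an unadjusted p under 0.05, and limma called 0.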

How the results depend on the processing

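No setting called a gene in the comparison or in either interaction, and the lowest adjusted p of the comparison over all settings was 0.19, without anti-CD40 replicate 1, by limma. Counts at an unadjusted p under 0.05 moved with single libraries. The 6 libraries of the comparison were left out 1 at a time, and libraries of the other groups were not. This gave 47 (without anti-CD40 replicate 2) to 1788 (without anti-CD40 replicate 1) higher genes. It gave 27 to 1505 lower ones with the same libraries left out. For the interaction with the agonist the ranges were 60 to 1097 higher and 62 to 844 lower, and for that with genotype 12 to 361 and 13 to 433. In such fits a group of 3 loses 1 library and its spread is pooled with the other groups.

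Other settings moved some of these counts by over 1.5 times. In the comparison, library weights gave 106 higher and 24 lower, the keratinocyte and muscle scores as covariates 95 and 34, fewer genes (mean above 2) 205 lower, only the 6 libraries 271 lower and voom 295 lower. In the interaction with the agonist, weights gave 98 higher and 25 lower, scores 131 higher, the L number as a covariate 404 and 433, no filter 359 lower and a mean above 2 90 lower. In that with genotype, the L number gave 57 higher, scores 94 and 132, no filter 71 and 152, a mean above 2 19 and 18, and weights 17 lower. Apart from the filters, which change the genes tested, the cause was not tested.

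Deviations from the group means gave no sign that replicate numbers pair the libraries. Their correlations were 0.23, -0.04 and -0.26 for same-numbered libraries and ran from -0.23 to 0.29 for differently numbered ones. The fit with a replicate block gave 235 higher and 348 lower in all 30 libraries, 339 and 310 in the 6 alone, and 156 higher for the interaction with the agonist.

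Of 100 named genes tested, 27 changed sign under some setting. Ranges on leaving out 1 library were -0.23 to 0.21 for Apoe, -0.38 to 0.27 for Bst2, -0.24 to 0.01 for Ccl25, -1.48 to 0.08 for Ccl6, -0.89 to 0.06 for Cd40, -0.63 to 0.85 for Cd8a, -0.31 to 0.03 for Csf1, -0.03 to 0.29 for Hsp90aa1, -0.17 to 0.23 for Lgals9, -1.18 to 0.22 for Pdcd1, -0.12 to 0.10 for Pmel, -0.03 to 0.45 for Ptpn11, -0.26 to 0.15 for Tgfb1, -0.15 to 0.41 for Tgfb3 and -0.03 to 0.29 for Tnip1. The scores gave Apoe 0.43, Bst2 0.62, Ccl25 0.01, Cd40 0.23, Chuk -0.14, Dsp 0.49, Gdap10 -0.45, Hsp90aa1 -0.08, Pdcd1 0.66, Pmel 0.12, Psme1 0.35, Ptpn11 -0.05, RP23-461P14.1 -0.44, RP23-79K5.3 -0.50, RP24-222G3.2 -0.36, RP24-338G10.1 -0.69, Sbsn 0.02, Sirpa -0.04, Tgfb1 0.17 and Tgfb3 -0.08. Weights gave Apoe 0.22, Bst2 0.51, Ccl25 0.08, Cd40 0.23, Hsp90aa1 -0.03, Pmel 0.15 and Spp1 0.37, and quantile normalization Apoe 0.15, Bst2 0.01 and Lgals9 -0.00.

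Settings chosen after seeing the data were the removal of the exon length trend, a fit of only the 5 libraries without anti-CD40 replicate 2, and overlap against anti-CD40 replicates 1 and 3 alone. The first gave Apoe 0.16, Bst2 0.28, Ikbkb -0.09 and Pmel 0.15. The fit of 5 libraries gave 193 lower genes, Apoe 0.21, Bst2 0.11, Ccl25 0.01, Cd40 0.06, Lgals9 -0.17, Pdcd1 0.22, Ptpn11 -0.03 and Tnip1 -0.03. The last gave 1127 genes above (7.51%) and 1444 below (9.63%). Without anti-CD40 replicate 2 the median of 12 of 32 lists changed sign. Genes of few reads, such as Ifng, Cd3e and Pdcd1, allow no difference to be seen at this depth.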

Other observations

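Gene classes also differed in anti-CD40 replicate 2. Against the mean of the other 5 libraries, 79 TEC loci, GENCODE's class for transcripts awaiting experimental proof, had a median deviation of -1.58 in it, 202 lincRNA genes of -0.43, 917 processed pseudogenes of 0.68 and 13082 protein-coding genes of -0.07. Set against the mean of all 30 libraries, this library also had the highest deviation of the shortest of the 5 length bins (0.60) and the lowest of the longest (-0.66). The next highest for the shortest bin were HET anti-CD40 replicate 4 at 0.49 and HET combination replicate 1 at 0.38.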
